A study of Danio rerio with 4 samples.

Results

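The enzymes of glycolysis and gluconeogenesis were followed in the liver of fasting zebrafish larvae upon treatment with lipofermata. The set held 48 genes: the enzymes of both routes, the glucose transporters, the enzymes that set fructose 2,6-bisphosphate, lactate dehydrogenases and pyruvate dehydrogenase kinases. Each gene was taken by its name in the table of counts, which had 32058 gene rows. All 48 names were found, each with a single identifier, and 40 of them had enough counts to be tested, among 14925 genes tested in all.

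Lipofermata, a small molecule inhibitor of the fatty acid transporter that slc27a2a encodes, was given to AB larvae without food at 5 μM for 48 h from 4 days post-fertilization (dpf), and the comparison asked which liver genes the drug changes. The control larvae were of the same strain and age, also fasted, and received the solvent DMSO. Livers were dissected at 6 dpf, and 30 larvae were pooled for each library, with 2 libraries in each group. No source used here tells if the pools came from separate clutches, so the p-values measure the spread between these pools, which may be technical.

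Glycolysis splits glucose into pyruvate, and gluconeogenesis rebuilds glucose from pyruvate, lactate and amino acids. The routes share the reversible enzymes in the middle, whereas 3 steps are run by different enzymes in each direction: hexokinases against glucose-6-phosphatase, phosphofructokinase against fructose-1,6-bisphosphatase, and pyruvate kinase against phosphoenolpyruvate carboxykinase together with pyruvate carboxylase. In a fasting liver, gluconeogenesis supplies glucose to the other organs, and fructose 2,6-bisphosphate, a signal that activates phosphofructokinase and inhibits fructose-1,6-bisphosphatase, sets the balance at the middle step.

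The libraries held 14997821 to 19368695 counts. Levels are given as CPM, the counts of a gene relative to all counts of its library, after scaling with TMM factors (trimmed mean of M-values), which center the typical gene of each library. The 48 genes together took 2.00% and 2.06% of all counts in the lipofermata libraries, against 2.38% and 2.80% in the DMSO libraries. The labels name no transgene, but the table has a row for EGFP, a green fluorescent protein, and which reporter these larvae carried is not known here; that row had 495 and 322 CPM with lipofermata, against 818 and 711 CPM with DMSO. No gene lengths were used here, so a level in CPM is compared between libraries for 1 gene; where reads of several genes are summed or ranked, as for opposing steps and paralogs, they are not corrected for length. Replicates differed most in the DMSO group: over the 40 genes tested, the median difference between replicates was 0.17 on the log2 scale with lipofermata and 0.42 with DMSO.

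Lipofermata changed 19 of the 40 tested genes of the 2 routes, of which 6 rose and 13 fell, at an adjusted p under 0.1 from edgeR's quasi-likelihood test with Benjamini-Hochberg adjustment over all genes tested. Over all genes tested, 16.6% rose and 16.9% fell. The falls include aldoab, which had enough counts for the test only in the DMSO libraries, so its direction was set by that choice. The median log2 fold change was -0.09 for the 40 genes and -0.03 for all genes. In 17 of the 40 genes both lipofermata libraries lay below both DMSO libraries, in 10 they lay above, and in 13 the groups overlapped. The share of all tested genes with groups apart is not given here, so these counts only describe the 40 genes. Directions depended on the scaling: with total counts in place of TMM, the median of all genes moved to 0.36, and 12 of the 40 genes rose while 6 fell. On that scale 81.2% of all changed genes were higher, against 49.5% with TMM, so a rise or fall below stands against the typical gene of that liver.

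**Figure D1:**
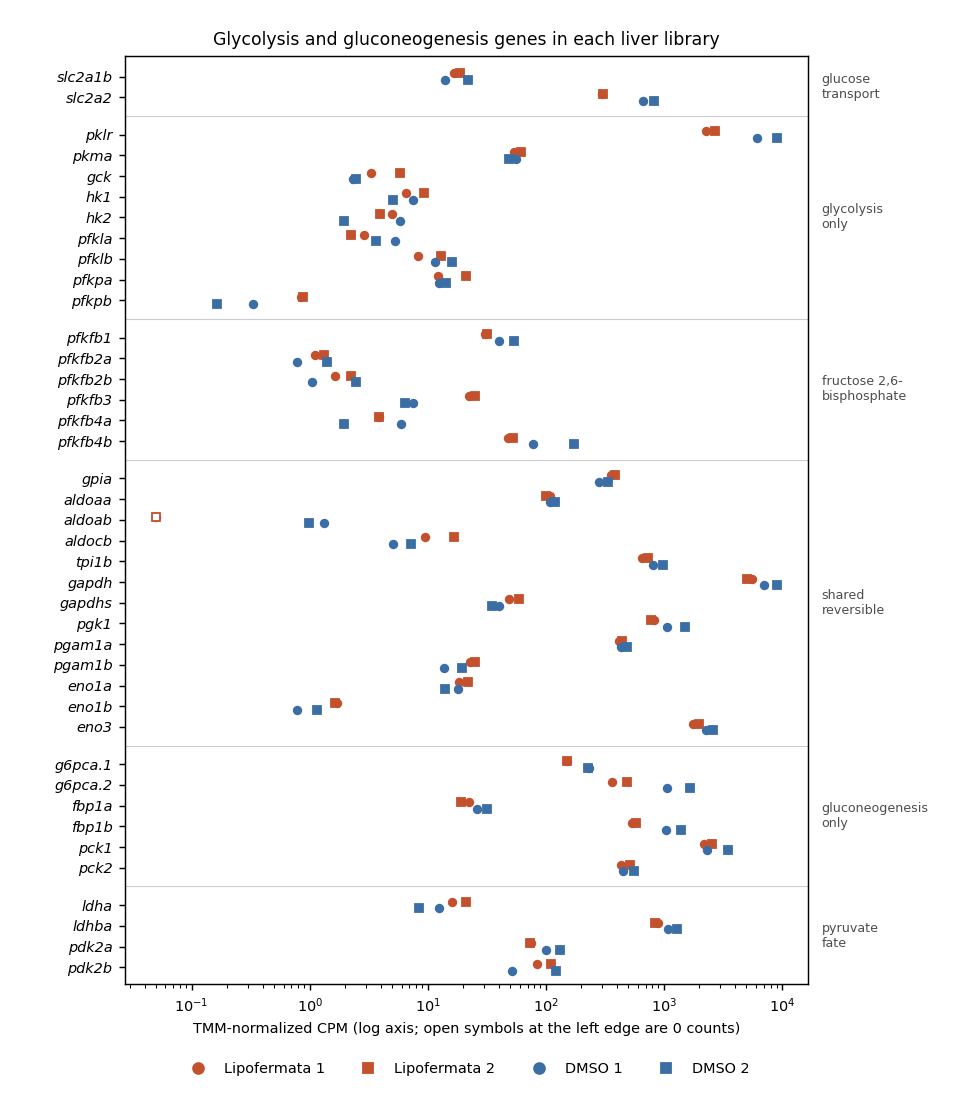
TMM-normalized CPM (log axis) of the 40 tested genes in the lipofermata libraries (orange) and the DMSO libraries (blue), grouped by role, with circles for replicate 1 and squares for replicate 2. Both orange symbols lie left of both blue ones in genes such as pklr, slc2a2 and g6pca.2, and right of them in genes such as pfkfb3.

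Of the 6 enzymes that serve gluconeogenesis alone, 4 fell and 2 did not pass the test. The shares over all genes tested were 16.9% that fell and 16.6% that rose. Glucose-6-phosphatase, which releases free glucose from the hepatocyte, is encoded here by g6pca.1 and g6pca.2. The gene g6pca.2 had 365 and 489 CPM in lipofermata livers, against 1054 and 1663 CPM in DMSO livers. The groups were fully apart, with a 3.18-fold fall (log2 fold change -1.67, standard error 0.23, edgeR adjusted p = 8.2e-04). Its paralog g6pca.1 had 150.2 and 150.1 CPM with lipofermata, against 232 and 226 CPM with DMSO. Here too the groups did not overlap, and the fall was 1.53-fold (log2 fold change -0.61, standard error 0.14, edgeR adjusted p = 0.010). The sources used here do not say how the counting treated reads that match both genes, so the split of reads between these copies is uncertain.

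Fructose-1,6-bisphosphatase, which removes a phosphate from fructose 1,6-bisphosphate, followed in both copies. For fbp1b the levels were 542 and 577 CPM in lipofermata livers and 1043 and 1396 CPM in DMSO livers. That 2.18-fold fall left a wide gap between the groups (log2 fold change -1.13, standard error 0.18, edgeR adjusted p = 0.0016). The copy fbp1a had 22.2 and 19.2 CPM with lipofermata, against 25.9 and 31.4 CPM with DMSO. Its groups were apart by a small margin (log2 fold change -0.47, standard error 0.16, edgeR adjusted p = 0.062).

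Phosphoenolpyruvate carboxykinase, the enzyme that makes phosphoenolpyruvate from oxaloacetate, did not pass the test in either form. The cytosolic pck1 had 2167 and 2532 CPM with lipofermata, against 2305 and 3463 CPM with DMSO. Lipofermata replicate 2 exceeded DMSO replicate 1, so the groups overlapped (log2 fold change -0.30, standard error 0.21, edgeR adjusted p = 0.32). Without DMSO replicate 1, pck1 was called lower (log2 fold change -0.55, edgeR adjusted p = 5.4e-04). The mitochondrial pck2 had 431 and 516 CPM with lipofermata and 454 and 560 CPM with DMSO, again overlapping (log2 fold change -0.10, standard error 0.17, edgeR adjusted p = 0.71).

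Hepatocytes carry out gluconeogenesis in the liver, and of 15 tested hepatocyte markers 6 fell and 0 rose (over all genes tested, 16.9% fell and 16.6% rose). The summed level of the hepatocyte markers was 59050 and 62340 CPM with lipofermata, against 82250 and 96970 CPM with DMSO. Fewer hepatocytes in a pool and less RNA of these genes per hepatocyte cannot be told apart in bulk tissue, and the part of the markers' shift in these falls was not tested. The calls of g6pca.2 and fbp1b held under all 11 alternatives tried, whereas those of g6pca.1 and fbp1a were lost with total counts (log2 fold changes -0.22 and -0.07) and without either lipofermata replicate. The call of fbp1a was also lost with DESeq2 (log2 fold change -0.45, adjusted p = 0.20) and without DMSO replicate 2 (log2 fold change -0.32).

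Of the 12 genes that serve glycolysis alone, 9 were tested, with 1 rise, 1 fall and 7 genes short of the threshold. These counts stand beside 16.6% that rose and 16.9% that fell over all genes tested. The fall was in pklr, the pyruvate kinase of liver and red cells, which makes pyruvate and ATP from phosphoenolpyruvate. It had 2281 and 2732 CPM with lipofermata, against 6172 and 9038 CPM with DMSO. Both lipofermata libraries were far below both DMSO libraries, a 3.03-fold fall (log2 fold change -1.60, standard error 0.21, edgeR adjusted p = 6.2e-04), and the call held under all 11 alternatives. The muscle-type pyruvate kinase pkma behaved differently, with 54.0 and 61.9 CPM in lipofermata livers and 55.7 and 49.0 CPM in DMSO livers. Its groups overlapped (log2 fold change 0.15, standard error 0.15, edgeR adjusted p = 0.51). The other muscle-type copy, pkmb, had 2 to 4 counts in each library and was not tested.

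Glucokinase, the hexokinase of liver whose rate follows the glucose concentration, was the gene that rose. Its gene gck had 3.30 and 5.81 CPM with lipofermata, against 2.33 and 2.45 CPM with DMSO, from 30 to 106 counts in a library. The groups were apart, and the 1.90-fold rise was just past the threshold (log2 fold change 0.93, standard error 0.38, edgeR adjusted p = 0.099). The call was lost with DESeq2, limma voom, a filter at 0.5 CPM and without lipofermata replicate 2, which was the higher library (log2 fold change 0.47 without it). The hexokinases of other tissues were no clearer: hk1 had 6.55 and 9.37 CPM with lipofermata and 7.54 and 5.06 CPM with DMSO, and hk2 had 5.00 and 3.94 CPM with lipofermata and 5.77 and 1.96 CPM with DMSO. In both genes the DMSO replicates enclosed or overlapped the lipofermata ones, and neither passed the test (edgeR adjusted p = 0.45 for hk1 and 0.81 for hk2).

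Phosphofructokinase, which commits sugar to glycolysis, had 6 genes, and of the 4 tested 0 passed edgeR's test, 2 had an unadjusted p under 0.05 (pfkla and pfkpb), and neither DESeq2 nor limma voom called any. Each was called under another alternative: pfkpa and pfkpb higher with total counts (log2 fold changes 0.72 and 2.08), pfkla lower without DMSO replicate 2 (-1.03) and pfklb lower without DMSO replicate 1 (-0.59). The liver-type pfkla had 2.90 and 2.25 CPM with lipofermata, against 5.27 and 3.68 CPM with DMSO, and the groups were apart (log2 fold change -0.80, standard error 0.35, edgeR adjusted p = 0.12). The other liver-type copy, pfklb, had 8.30 and 13.04 CPM with lipofermata and 11.5 and 16.2 CPM with DMSO, with overlap. Of the platelet-type genes, pfkpb had 17 and 16 counts with lipofermata, against 6 and 2 counts with DMSO, a difference in the other direction that also missed the threshold (log2 fold change 1.71, standard error 0.75, edgeR adjusted p = 0.12). Enough counts for the test were found for pfkpb only in the lipofermata libraries, so its direction was set by that choice. Its call with total counts carries the same limit. For pfkpa, levels were 12.1 and 21.2 CPM with lipofermata and 12.4 and 14.1 CPM with DMSO, so the groups overlapped. The muscle-type genes were almost unread: pfkma had 0 counts with lipofermata and 4 with DMSO, and pfkmb had 0 in every library.

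The opposing enzymes of the 3 steps were then set against each other inside each library, as the log2 ratio of the summed glycolytic CPM to the summed gluconeogenic CPM. Only the change of a ratio between groups is read, since its level depends on gene lengths. With 2 libraries against 2, the exact two-sided permutation test cannot go below p = 0.333, and all 3 steps gave that value. At the step between glucose and glucose 6-phosphate, the ratio of gck, hk1 and hk2 to g6pca.1 and g6pca.2 was -5.12 and -5.06 with lipofermata, against -6.36 and -7.64 with DMSO. The groups were apart and the ratio was 3.76-fold higher with lipofermata. The summed glucose-6-phosphatases were lower in both lipofermata libraries (515 and 639 CPM, against 1286 and 1890 CPM with DMSO). The sum of the 3 hexokinase genes overlapped between the groups (14.8 and 19.1 CPM with lipofermata, 15.6 and 9.47 CPM with DMSO), but this depends on which genes are summed. With hkdc1, a hexokinase outside the set of 48 that rose, the sum was 63.3 and 67.0 CPM with lipofermata, against 44.5 and 31.2 CPM with DMSO, and the groups were apart. With hkdc1 and the further phosphatase gene g6pc3 added, a choice made after the values were seen, the ratio was 4.71-fold higher with lipofermata.

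At the step between fructose 6-phosphate and fructose 1,6-bisphosphate, the ratio was also above DMSO in both lipofermata libraries. The ratio of the phosphofructokinases to the fructose-1,6-bisphosphatases was -4.55 and -4.00 with lipofermata, against -5.17 and -5.38 with DMSO, which is 2.01-fold higher. The phosphofructokinase sum overlapped between groups (24.1 and 37.4 CPM with lipofermata, 29.6 and 34.3 CPM with DMSO). The fructose-1,6-bisphosphatase sum was lower in both lipofermata libraries (564 and 596 CPM, against 1068 and 1428 CPM with DMSO).

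The step between phosphoenolpyruvate and pyruvate moved the other way. The ratio of the pyruvate kinases to the carboxykinases was -0.15 and -0.13 with lipofermata, against 1.17 and 1.18 with DMSO, which is 2.49-fold lower. Here the glycolytic sum was the one that differed, with 2335 and 2794 CPM in lipofermata livers and 6227 and 9087 CPM in DMSO livers, while the carboxykinase sum overlapped (2598 and 3047 CPM with lipofermata, 2759 and 4022 CPM with DMSO). Thus the side with the fallen genes was gluconeogenic at the upper steps and glycolytic at the lowest. Taking the mean of the members' log2 levels in place of their sum kept the direction of all 3 ratios, but brought the difference at the lowest step to -0.53 from -1.31, since pkma then weighs as much as pklr.

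**Figure D2:**
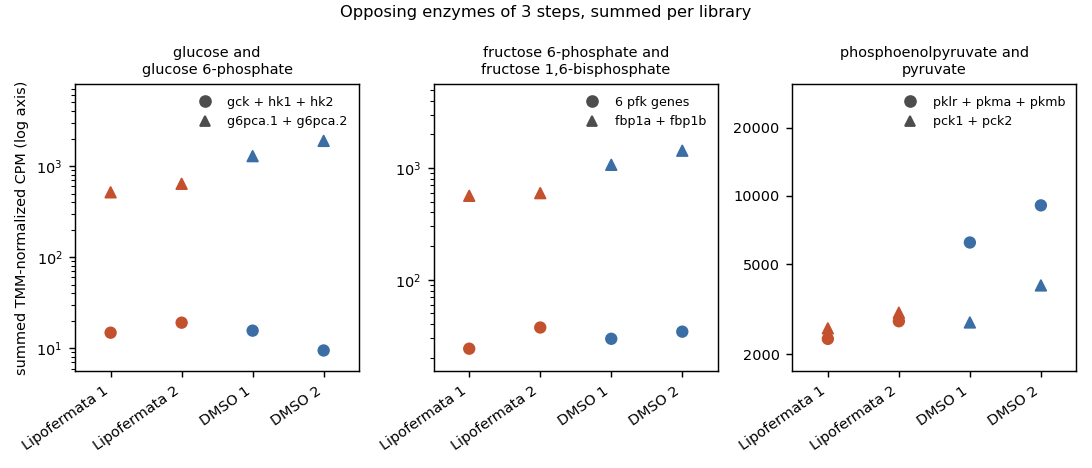
Summed TMM-normalized CPM (log axes, with a different range in each panel) of the glycolytic enzymes (circles) and the gluconeogenic enzymes (triangles) of 3 steps, in the lipofermata libraries (orange) and the DMSO libraries (blue). Triangles are lower with lipofermata in the first and second panels. Circles overlap between groups there, although in the first panel they would be apart with hkdc1, a hexokinase outside the set (63.3 and 67.0 CPM, against 44.5 and 31.2 CPM with DMSO), and circles are lower with lipofermata in the last (2335 and 2794 CPM, against 6227 and 9087 CPM).

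Fructose 2,6-bisphosphate is made and removed by enzymes with a kinase and a phosphatase domain. Their 6 genes gave 1 rise, 2 falls and 3 values short of the threshold (over all genes tested, 16.6% rose and 16.9% fell). The gene that rose was pfkfb3, known in mammals as the form with the strongest bias to the kinase. It had 22.5 and 25.1 CPM with lipofermata, against 7.49 and 6.37 CPM with DMSO. No library of one group came near the other, and the rise was 3.42-fold (log2 fold change 1.77, standard error 0.19, edgeR adjusted p = 2.0e-04), the largest among the 6 rises of the set. The call held under all 11 alternatives, with log2 fold changes of 1.67 to 2.15.

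The liver form pfkfb1, known in mammals to switch from kinase to phosphatase when it is phosphorylated in fasting, had 30.4 and 31.9 CPM with lipofermata and 39.8 and 53.6 CPM with DMSO. It fell 1.496-fold with the groups apart (log2 fold change -0.58, standard error 0.17, edgeR adjusted p = 0.028), a call lost with total counts (log2 fold change -0.18) and without either lipofermata replicate. The gene pfkfb4b had 47.8 and 52.4 CPM with lipofermata, against 77.4 and 173 CPM with DMSO. Its DMSO replicates stood far from each other, but both were above the lipofermata libraries (log2 fold change -1.32, standard error 0.29, edgeR adjusted p = 0.0089). Without DMSO replicate 2 the log2 fold change was -0.63, with the call kept. Its paralog pfkfb4a had 3.90 and 3.83 CPM with lipofermata, between the 5.88 and 1.96 CPM of the DMSO replicates. The copies pfkfb2a and pfkfb2b overlapped as well, at 0.78 to 2.45 CPM over all libraries.

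Within this family the reads were thus divided differently. The gene pfkfb3 took 20.9% (95% Wilson interval 19.3 to 22.7) and 21.5% (19.8 to 23.3) of the family's reads with lipofermata, against 5.65% (4.80 to 6.65) and 2.67% (2.14 to 3.32) with DMSO. The Wilson intervals given here and below treat reads as independent molecules. Amplified reads are not independent, so the intervals are too narrow even for counting error. The spread between pools is left out as well. Against pfkfb1, which does not share its direction, the ratio of pfkfb3 was 5.09-fold higher with lipofermata (log2 ratios -0.43 and -0.34, against -2.41 and -3.06 with DMSO), and against pfkfb4b it was 7.92-fold higher.

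The reversible enzymes, which serve both routes, had 17 genes, of which 13 were tested. There were 3 rises, 3 falls and 7 genes short of the threshold (over all genes tested, 16.6% rose and 16.9% fell). Among those that fell were the genes of neighbouring steps that make the first ATP of glycolysis. The dehydrogenase gapdh, which oxidizes glyceraldehyde 3-phosphate, had 5569 and 5049 CPM with lipofermata, against 7031 and 9083 CPM with DMSO. It fell 1.52-fold with the groups apart (log2 fold change -0.60, standard error 0.18, edgeR adjusted p = 0.034). Phosphoglycerate kinase, encoded by pgk1, had 817 and 783 CPM with lipofermata, against 1072 and 1501 CPM with DMSO. The 1.61-fold fall again left no overlap (log2 fold change -0.69, standard error 0.18, edgeR adjusted p = 0.021). Both calls were lost with total counts (log2 fold changes -0.20 for gapdh and -0.28 for pgk1) and without either lipofermata replicate.

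The third fall was in aldoab, an aldolase A gene, the muscle type in mammals. It had 0 counts in both lipofermata libraries, against 24 and 12 counts in the DMSO libraries (1.33 and 0.98 CPM). It had enough counts for the test only in the DMSO libraries, so its call cannot count as a test of direction. With 3 counts over the lipofermata group set in place of 0, the fall would be 15.2-fold. That value leaves out the spread between pools. Muscle markers were also higher in the DMSO libraries, with 4.15 and 6.30 CPM summed over 16 genes with lipofermata, against 22.5 and 9.07 CPM with DMSO. Of the 8 muscle markers tested, 3 fell and 0 rose (over all genes tested, 16.9% fell and 16.6% rose). These 3, actc1b, mylpfa and tnnt3b, also had enough counts for the test only in the DMSO libraries. Their falls thus cannot count as tests of direction either. The markers mylpfb and tnni2a.4 were at 0 in every library, and the part of muscle tissue in the aldoab reads was not tested. The copy aldoaa had 107 and 101 CPM with lipofermata, against 108 and 120 CPM with DMSO, and did not pass the test (log2 fold change -0.12, standard error 0.14, edgeR adjusted p = 0.57).

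The genes that rose were aldocb, gapdhs and pgam1b. For aldocb, an aldolase C known in mammals from the brain, the levels were 9.49 and 16.5 CPM in lipofermata livers and 5.10 and 7.19 CPM in DMSO livers. The groups were apart, with a 2.13-fold rise (log2 fold change 1.09, standard error 0.30, edgeR adjusted p = 0.022). A second dehydrogenase gene, gapdhs, whose mammalian counterpart works in sperm, had 48.9 and 59.3 CPM with lipofermata, against 40.1 and 34.95 CPM with DMSO. Its rise was 1.44-fold without overlap (log2 fold change 0.52, standard error 0.15, edgeR adjusted p = 0.032). Phosphoglycerate mutase moves a phosphate between the carbons of phosphoglycerate, and its gene pgam1b had 22.6 and 25.1 CPM with lipofermata, against 13.6 and 19.7 CPM with DMSO. It rose 1.44-fold (log2 fold change 0.53, standard error 0.19, edgeR adjusted p = 0.072). The calls of aldocb and gapdhs were lost without lipofermata replicate 2 (log2 fold changes 0.64 and 0.38), and that of pgam1b with DESeq2 and without either lipofermata replicate or DMSO replicate 1.

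Of the reversible enzymes that did not pass the test, triosephosphate isomerase and muscle enolase came close. The isomerase gene tpi1b had 656 and 729 CPM with lipofermata, against 812 and 990 CPM with DMSO, and eno3 had 1764 and 1973 CPM with lipofermata, against 2275 and 2585 CPM with DMSO. In both genes the groups were apart (log2 fold change -0.38 and edgeR adjusted p = 0.11 for each), and both were called lower with DESeq2, with limma voom and without DMSO replicate 1. Glucose-6-phosphate isomerase was on the other side, with 360 and 382 CPM for gpia with lipofermata, against 284 and 337 CPM with DMSO (log2 fold change 0.25, standard error 0.15, edgeR adjusted p = 0.25). The mutase pgam1a overlapped at 417 and 444 CPM with lipofermata and 431 and 483 CPM with DMSO. The enolases eno1a and eno1b were above DMSO in both lipofermata libraries but missed the threshold (edgeR adjusted p = 0.21 and 0.30). Too few reads for a test fell on gpib (0 to 6 counts in a library), aldoca (2 counts in all, in DMSO replicate 2), tpi1a (2 counts in all, in lipofermata replicate 2) and the neuronal enolase eno2, which had 0 counts with lipofermata and 8 with DMSO, all in replicate 1.

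At the exit of the route, the lactate dehydrogenase genes ldha and ldhba moved in opposite directions. Lactate dehydrogenase A, known in mammals for making lactate in muscle and hypoxic tissue, is encoded by ldha, which had 16.1 and 20.9 CPM with lipofermata, against 12.4 and 8.49 CPM with DMSO. It rose 1.76-fold with the groups apart (log2 fold change 0.81, standard error 0.22, edgeR adjusted p = 0.024), a call lost without lipofermata replicate 2 (log2 fold change 0.62). The B form ldhba, whose mammalian counterpart prevails in heart, had 900 and 838 CPM with lipofermata and 1090 and 1302 CPM with DMSO. It fell 1.38-fold, also without overlap (log2 fold change -0.46, standard error 0.16, edgeR adjusted p = 0.058), and lost the call with total counts (log2 fold change -0.06) and without either lipofermata replicate. The ratio of ldhba to ldha within a library, which no scaling can change, was 2.45-fold lower with lipofermata (log2 ratios 5.80 and 5.32, against 6.46 and 7.25 with DMSO). The other B gene, ldhbb, is outside the set of 48 and was looked up after the values were seen; it had 466 and 451 CPM with lipofermata, against 318 and 370 CPM with DMSO. It rose (log2 fold change 0.41, standard error 0.15, edgeR adjusted p = 0.069), so the B genes went both ways.

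Pyruvate dehydrogenase kinases block the entry of pyruvate into the citric acid cycle. The gene pdk2a had 74.9 and 72.7 CPM with lipofermata, against 101 and 132 CPM with DMSO. It fell 1.58-fold with the groups apart (log2 fold change -0.66, standard error 0.16, edgeR adjusted p = 0.014), and lost the call with total counts (log2 fold change -0.26) and without either lipofermata replicate. Its paralog pdk2b had 83.9 and 110 CPM with lipofermata, inside the range of the DMSO replicates at 52.0 and 123 CPM (edgeR adjusted p = 0.76). That gene turned with the DMSO replicate used: without DMSO replicate 2 it was called higher (log2 fold change 0.90), and without DMSO replicate 1 it was called lower (log2 fold change -0.33, edgeR adjusted p = 0.072).

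Glucose crosses the hepatocyte membrane in both directions through GLUT2, the transporter that slc2a2 encodes. It had 299 and 306 CPM in lipofermata livers, against 662 and 823 CPM in DMSO livers. The replicates of lipofermata were close to each other and far below both DMSO replicates, a 2.46-fold fall (log2 fold change -1.30, standard error 0.16, edgeR adjusted p = 4.7e-04) that was called under all 11 alternatives. The GLUT1 gene slc2a1b, a transporter of most tissues, had 16.6 and 18.7 CPM with lipofermata, inside the 14.1 and 21.7 CPM of the DMSO replicates (log2 fold change -0.01, standard error 0.21, edgeR adjusted p = 0.98). The other GLUT1 gene, slc2a1a, had 8 and 14 counts with lipofermata and 4 and 7 counts with DMSO and was not tested.

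**Figure D3:**
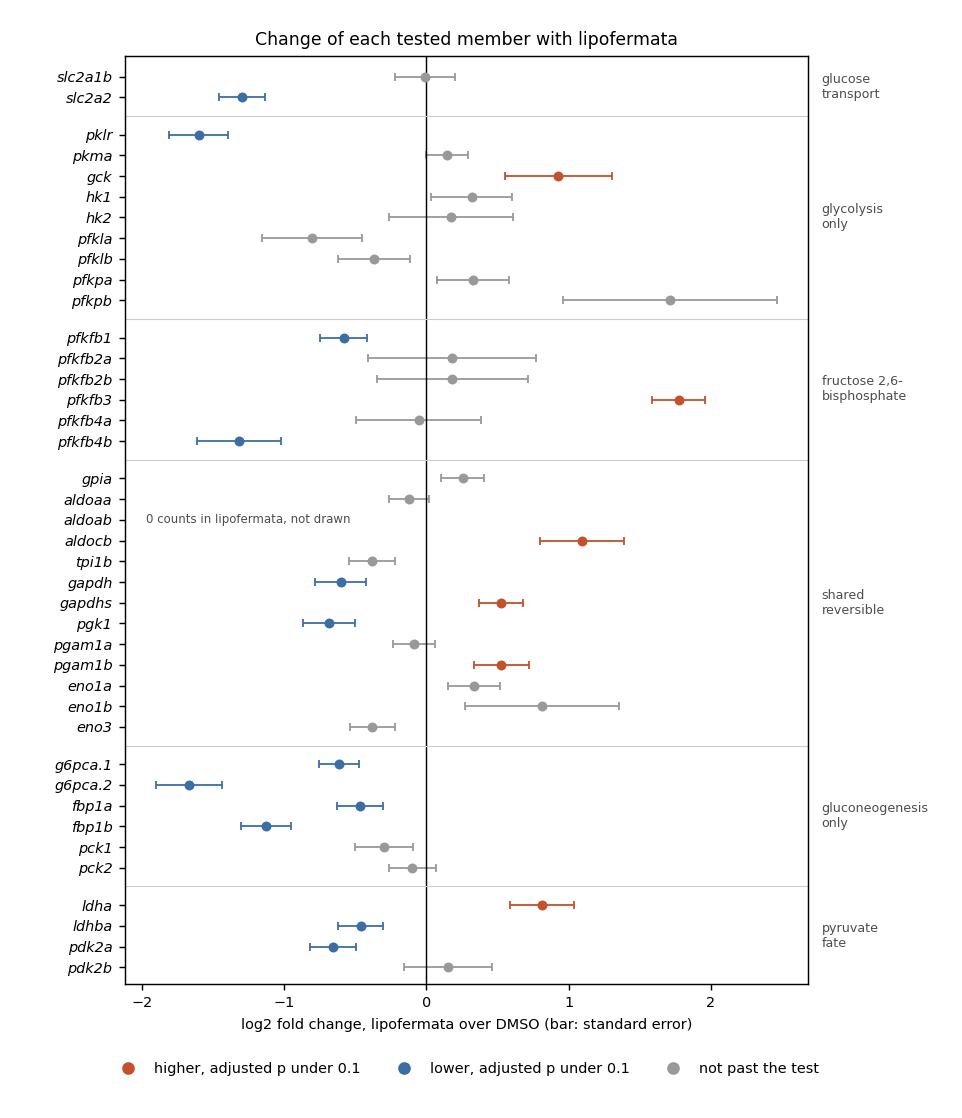
Log2 fold change of lipofermata over DMSO for 39 tested genes, with bars for the standard error, grouped by role; orange marks a rise, blue a fall and gray a gene that did not pass the test, and aldoab, at 0 counts with lipofermata, has no point. Falls reach furthest in g6pca.2, pklr, pfkfb4b and slc2a2, and the rises are led by pfkfb3 at 1.77.

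Paralogs were compared inside each library as log2 ratios of counts, with 0.5 counts added to each gene, which makes them independent of the scaling. Of 26 pairs, 20 had both genes tested. The ratio was above DMSO in both lipofermata libraries in 8 pairs, below in 7 and overlapping in 5. Each of the 15 pairs that were apart gave p = 0.333, the smallest the exact test allows. The share of pairs apart among other genes is not given here, and some genes, such as pfkfb3 and hk1, recur across pairs. These counts therefore only describe the pairs compared. In pyruvate kinase, the ratio of pkma to pklr was 3.31-fold higher with lipofermata (log2 ratios -5.40 and -5.46, against -6.79 and -7.53 with DMSO). The muscle-type pkma thus took 2.31% (95% Wilson interval 2.18 to 2.45) and 2.22% (2.09 to 2.35) of the family's reads with lipofermata, against 0.89% (0.84 to 0.95) and 0.54% (0.50 to 0.58) with DMSO. In glucose transport, slc2a1b took 5.26% (4.73 to 5.83) and 5.76% (5.20 to 6.38) of the reads with lipofermata, against 2.08% (1.84 to 2.35) and 2.57% (2.28 to 2.89) with DMSO.

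A like pattern was seen in g6pca and fbp1, where both copies fell. The ratio of g6pca.1 to g6pca.2 was 2.05-fold higher with lipofermata (log2 ratios -1.28 and -1.70, against -2.18 and -2.88 with DMSO), and that of fbp1a to fbp1b was 1.56-fold higher (-4.61 and -4.91, against -5.33 and -5.47 with DMSO). In both pairs the copy with more reads fell further. The copies gapdhs and gapdh went opposite ways, with a rise in gapdhs and a fall in gapdh. Their ratio, gapdhs to gapdh, was 2.16-fold higher with lipofermata (-6.83 and -6.41, against -7.45 and -8.02 with DMSO). By contrast, pck1 over pck2 differed by only -0.17 on the log2 scale, with groups that barely separated (2.33 and 2.29 with lipofermata, against 2.34 and 2.63 with DMSO). Pairs without a separation were hk2 over hk1, pfkla over pfklb, eno1a over eno1b, pfkfb2a over pfkfb2b and pfkfb4a over pfkfb4b.

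Of the 14 families with at least 2 tested genes, 12 had the same member with the most CPM in all 4 libraries, so that the comparison itself did not decide which member that was; the phosphofructokinases and the pyruvate dehydrogenase kinases did not. This view was chosen after the values were seen. In these 12 families, counting genes of the set alone, the member with the most CPM rose in 0, fell in 7 and missed the threshold in 5 (median log2 fold change -0.53). The other 19 tested members held all 6 rises, 4 falls and 9 genes short of the threshold (median log2 fold change 0.18). Over all genes tested, 16.6% rose and 16.9% fell. Hepatocyte markers, which have many reads, gave 6 falls and 0 rises among 15 tested. Genes of like level outside these families were not compared, so the pattern is not shown to be particular to paralogs or to these routes. In 10 of the 12 families the member with the most CPM had the lowest fold change, and the exceptions were the hexokinases and the aldolases. This view depends on which genes are in the set. The hexokinase gene hkdc1, outside it, had more CPM than hk1 in every library and rose (log2 fold change 0.92, edgeR adjusted p = 0.0030). Of the 7 falls, those of gapdh and ldhba were lost with total counts.

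**Figure D4:**
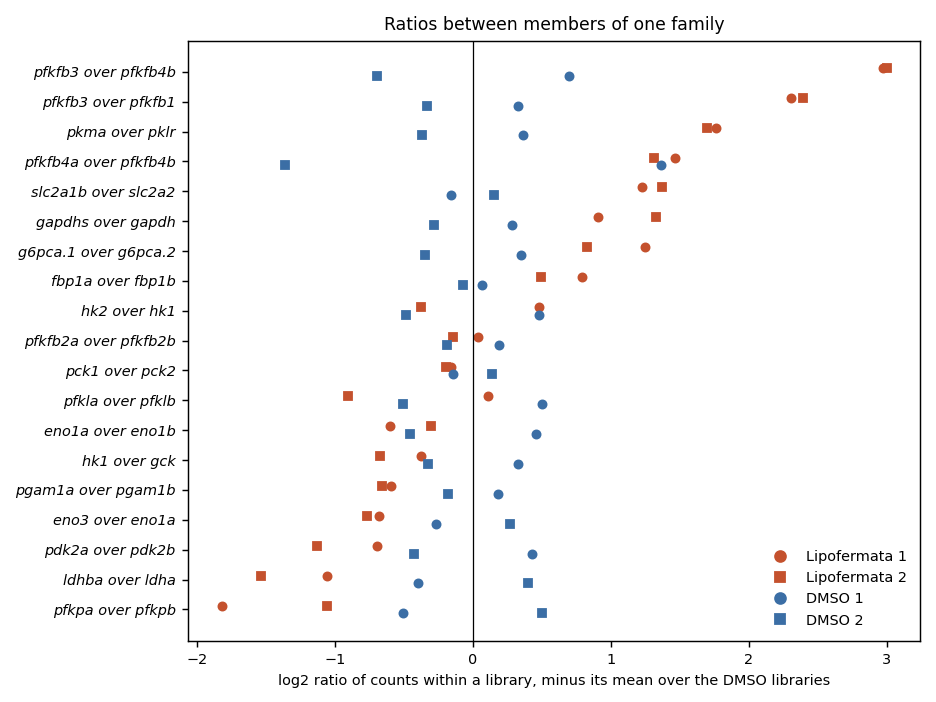
Log2 ratio of counts between 2 genes of a family within each library, minus its mean over the DMSO libraries, for 19 pairs (aldoaa over aldoab is not drawn, since aldoab had 0 counts with lipofermata). Lipofermata libraries (orange) stand right of both DMSO libraries (blue) in pairs such as pkma over pklr and pfkfb3 over pfkfb4b, and left in pairs such as ldhba over ldha.

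Genes of adjoining steps outside the set of 48 were read from a list of 36, of which 29 were tested: there were 7 rises, 5 falls and 17 genes short of the threshold (over all genes tested, 16.6% rose and 16.9% fell). Their median log2 fold change was 0.04. Among the falls were slc2a5 and khk, of fructose metabolism, and gpd1c. Another gene of fructose metabolism, tkfc, missed the threshold (log2 fold change -0.36, edgeR adjusted p = 0.13). The fructose transporter gene slc2a5 had 0 counts with lipofermata and 38 with DMSO, so it could be tested only through its DMSO libraries. With 3 counts over the lipofermata group set in place of 0, it would be 16.0-fold lower, a value that leaves out the spread between pools. Ketohexokinase, which phosphorylates fructose, fell 2.24-fold (khk, log2 fold change -1.16, edgeR adjusted p = 0.018). Its level was low, with 3.25 and 3.51 CPM with lipofermata, against 6.10 and 9.15 CPM with DMSO. The glycerol-3-phosphate dehydrogenase gpd1c fell 1.45-fold (log2 fold change -0.54, edgeR adjusted p = 0.032).

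Among the rises were a further hexokinase and pcxa, 1 of the genes of the entry enzyme of gluconeogenesis. The hexokinase gene hkdc1 had 48.4 and 47.9 CPM with lipofermata, against 28.9 and 21.7 CPM with DMSO (log2 fold change 0.92, standard error 0.16, edgeR adjusted p = 0.0030). Pyruvate carboxylase, which makes the oxaloacetate that the carboxykinases use, had 372 and 491 CPM with lipofermata and 247 and 290 CPM with DMSO in its gene pcxa. The groups were apart (log2 fold change 0.69, standard error 0.17, edgeR adjusted p = 0.017), and the call was lost without lipofermata replicate 2 (log2 fold change 0.47). Its paralog pcxb lay the other way, with 125 and 147 CPM with lipofermata, against 153.5 and 172 CPM with DMSO. It did not pass the test (log2 fold change -0.26, standard error 0.15, edgeR adjusted p = 0.24). The phosphoglucomutase gene pgm2 and galt, of galactose metabolism, rose as well (log2 fold changes 0.72 and 0.92, edgeR adjusted p = 0.017 and 0.022). Another phosphoglucomutase gene, pgm1, fell, with 462 and 563 CPM with lipofermata, against 645 and 880 CPM with DMSO (log2 fold change -0.57, edgeR adjusted p = 0.047). The levels of pgm2 were 78.2 and 85.7 CPM with lipofermata, against 59.0 and 40.2 CPM with DMSO. The glucokinase regulator gckr was not tested.

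Marker RNA of other cells, and of dividing cells, was also read, beside shares over all genes tested of 16.6% that rose and 16.9% that fell. All 21 cell cycle genes rose, with 529 and 432 summed CPM with lipofermata, against 195 and 162 CPM with DMSO. Of these, ccnb2, aurka, ccnb1, cdk1, bub1 and bub1bb had enough counts for the test in both lipofermata libraries but not in both DMSO libraries. Their rises thus cannot count as tests of direction. Endothelial markers fell in 10 of 12 tested (219 and 206 CPM, against 814 and 725 CPM with DMSO), and mesenchymal markers in 8 of 9 (73.6 and 154 CPM, against 300.1 and 430.1 CPM with DMSO). Macrophage markers fell in 1 of 6 and were highest in DMSO replicate 1 (21.6 and 24.4 CPM, against 66.7 and 15.03 CPM with DMSO). That fall was in marco, whose groups overlapped (5.70 and 4.38 CPM with lipofermata, against 24.0 and 4.17 CPM with DMSO). In the set, hk2, hk1, pfkfb4a, ldha, pfkla, eno1a, gapdhs and pkma were among the genes higher in DMSO replicate 1 than in DMSO replicate 2. Others, such as pck1, pklr and g6pca.2, were higher in DMSO replicate 2. Rises and falls numbered 0 and 4 of 7 for intestine, 1 and 4 of 7 for epidermis, 2 and 2 of 6 for bile duct, 0 and 2 of 5 for neutrophils, 1 and 0 of 7 for erythroid cells, 0 and 2 of 4 for neurons, 1 and 0 of 4 for endocrine pancreas, 0 and 0 of 12 for exocrine pancreas and 0 and 0 of 1 for photoreceptors and lens. Some of these genes had enough counts for the test in both libraries of only 1 group, so their direction was set by that choice. They were chia.1, cyt1l, npsn, elavl4 and snap25b among the falls, and slc4a1a and ins among the rises. Exocrine pancreas reached 10420 and 4676 CPM with lipofermata and 4025 and 8978 CPM with DMSO, with overlap, and 0 of its 12 genes had an unadjusted p under 0.05 in edgeR's test. Marker RNA does not give cell numbers, and its part in the changes described was not tested.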

How the data were processed

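Polyadenylated RNA of 4 pools of larval liver was sequenced from stranded libraries. The authors' tools, per the labels and the submitters' processing notes, were HISAT2 for alignment (genome GRCz11) and featureCounts for counting. Tool versions, annotation, strand setting and the treatment of multiply mapped reads: not given in the sources used here. Raw counts were deposited, without normalization by the authors. Where a listed name had several identifiers, the most counted was used.

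The main analysis used edgeR 4.0.16 under R 4.3.3: filterByExpr by group (minimum count 10; 14925 of 22295 genes with a count kept), TMM factors (1.16 and 1.13 for lipofermata, 0.932 and 0.817 for DMSO), and a quasi-likelihood F test of lipofermata against DMSO with no covariate. Benjamini-Hochberg adjustment covered all genes tested, with the study's false discovery rate of 0.1. The standard error is the size of the log2 fold change over the square root of F. Alternatives used DESeq2 1.42.0, limma 3.58.1 (voom), total counts, other filters, a replicate block, summed identifiers and each library left out. Scripts were tested on simulated data. Figures used Python 3.11.15 with matplotlib 3.10.9.

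The members, pairs, marker lists and lists of adjoining steps, pyruvate entry and regulators were chosen with earlier results of these data known. Of the 48 genes, those past the threshold and their tested paralogs are given by library; of each other list of the pathway, up to 4 genes in each direction with the smallest p are named, except 1 gene of the adjoining steps that is not reported here. Totals per library, 14997821 to 19368695, limit genes with few counts. Replicates spread beyond counting error (chi-square per degree of freedom 13.6 for lipofermata and 23.0 for DMSO). Sequences, gene lengths and promoters were not used here.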

Additional observations from a re-analysis of the deposited data

How the results depend on the processing

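Of the 19 changed genes, 7 were called in the same direction under every alternative that tested them: g6pca.2, fbp1b, pklr, slc2a2, pfkfb3, pfkfb4b and aldoab, the last not tested without DMSO replicate 1. The call of aldoab rests on its DMSO libraries alone, the only ones in which it had counts. With total counts, 12 genes rose and 6 fell, the median was 0.30, and uncalled genes turned direction: pck1 0.11, pck2 0.30, pfklb 0.029, aldoaa 0.27, tpi1b 0.018, pgam1a 0.31, eno3 0.015, slc2a1b 0.39 and pfkfb4a 0.30 on the log2 scale. The log2 fold change of slc2a1b was 0.010 with DESeq2, 0.010 with no filter and 0.046 with limma voom, and that of pfkfb4a was 0.043 with limma voom. With the replicate block, 6 genes rose and 15 fell, slc2a1b was at 0.011 and pfkfb4a at 0.10; tpi1b and eno3 gained a call, and no other call of the 40 genes changed. Deviations of same-numbered libraries had a correlation of 0.02 across genes, so they showed no shared shift. With 2 libraries in each group, this cannot tell if same-numbered pools came from the same clutch. Leaving out each library in turn gave 1 to 9 rises and 6 to 17 falls: 5 and 6 with lipofermata replicate 1 left out, 1 and 6 with lipofermata replicate 2 left out, 9 and 17 with DMSO replicate 1 left out, 8 and 13 with DMSO replicate 2 left out; a group left with 1 library is assumed to vary like the other. Log2 fold changes then ranged from -0.23 to 0.062 for pck2, -0.29 to 0.33 for slc2a1b, -0.13 to 0.68 for pfkpa, -0.32 to 0.88 for pfkfb2b, -0.33 to 0.90 for pdk2b, -0.19 to 0.63 for pfkfb2a, -0.60 to 0.99 for pfkfb4a, -0.55 to 0.028 for pck1 and -0.37 to 1.196 for hk2. Differences of log2 ratios ranged from -0.43 to 0.54 for hk2 over hk1, -0.90 to 0.11 for pfkla over pfklb, -0.91 to 0.0035 for eno1a over eno1b and -0.24 to 0.13 for pfkfb2a over pfkfb2b. The ratios of the opposing steps kept their direction, also with hkdc1 and g6pc3 added to the glucose step after the data were seen, and the lowest step came to -0.53 as a mean of log2 levels. The ratio of aldoaa to aldoab depends on the added count (5.37 with 0.5 and 3.49 with 2). Where no cause is named, the cause was not tested. Correcting opposing steps for gene length was not run. DESeq2 called 4 rises and 14 falls, limma voom 5 and 15, no filter 6 and 14, a filter at 0.5 CPM 5 and 13, and summed identifiers 6 and 13. Genes with few counts, such as gck, pfkla and pfkpb, are limited by depth.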

Other observations

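Pyruvate enters mitochondria through a carrier and is oxidized by the pyruvate dehydrogenase complex. Of 12 tested genes of this entry, 2 rose, 1 fell and 9 missed the threshold, which is near or below the shares over all genes tested (16.6% rose and 16.9% fell). The complex subunit gene dlat had 55.6 and 59.7 CPM with lipofermata, against 37.0 and 29.9 CPM with DMSO (log2 fold change 0.78, standard error 0.15, edgeR adjusted p = 0.0049), and the groups were apart. The carrier gene mpc1 rose by a smaller amount (log2 fold change 0.42, edgeR adjusted p = 0.062). The third subunit, dldh, which other enzyme complexes share, fell (log2 fold change -0.46, edgeR adjusted p = 0.045). The calls of mpc1 and dldh were lost without either lipofermata replicate, and that of dldh also with total counts.

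Of 45 tested regulators of glucose metabolism, 5 rose, 15 fell and 25 missed the threshold (over all genes tested, 16.6% rose and 16.9% fell). Their median log2 fold change was -0.23, against -0.03 over all genes. The liver nuclear receptor gene hnf4a had 50.7 and 54.3 CPM with lipofermata, against 99.4 and 145 CPM with DMSO (log2 fold change -1.21, standard error 0.18, edgeR adjusted p = 0.0013). Both lipofermata libraries were below both DMSO libraries. The glucose-responsive txnipa had 87.2 and 110 CPM with lipofermata, against 268 and 203 CPM with DMSO (log2 fold change -1.25, edgeR adjusted p = 0.0011). The hypoxia-inducible factor gene epas1b and the insulin receptor gene insra also fell (log2 fold changes -0.97 and -0.82, edgeR adjusted p = 0.0010 and 0.0027). These 4 calls held under every alternative run. Of the 5 rises, those of ppargc1b, cebpa, myca and foxo3b had log2 fold changes of 0.39 to 0.48 (edgeR adjusted p of 0.043 to 0.078), and these 4 calls were lost without either lipofermata replicate. The other rise, in foxo1b, was larger (log2 fold change 0.92, standard error 0.36, edgeR adjusted p = 0.083), from 23 to 91 counts in a library. Paralogs of these genes fell: foxo1a, foxo3a and mycb (log2 fold changes -0.55, -1.04 and -1.48, edgeR adjusted p = 0.033, 0.0031 and 0.024). Of the FoxO1 copies, foxo1a had far more reads, with 104 and 138 CPM with lipofermata, against 177.5 and 178 CPM with DMSO. The gene foxo1b and these paralogs were named after their values were seen.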
